A study of Mus musculus with 6 samples.

Results

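Rab GTPases are small switch proteins that mark the membranes of the cell and decide which vesicle is moved, tethered and fused where. A Rab binds its membrane through attached lipid tails, is turned on by an exchange factor (GEF), recruits effectors while it holds GTP, and is turned off by a GTPase-activating protein (GAP). Different Rabs serve the uptake of material into endosomes and lysosomes, its recycling to the surface, and the secretory route from the endoplasmic reticulum through the Golgi to the plasma membrane. In neural stem cells this traffic delivers and removes surface receptors.

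The genes described here are those whose platform symbol starts with Rab followed by a digit, 72 of the 18193 genes that the array names. Of these, 59 encode Rab proteins, 10 are partners named after a Rab (such as Rab11fip2 and Rab3gap1) and 3 are antisense transcripts. The 72 genes were read by 161 probe sets, and each gene stands for its probe set with the highest mean over all arrays. Messenger RNA of neural stem cells from C57BL/6JRj mice was measured on 6 arrays, 3 from young mice (6 weeks) and 3 from old mice (9 months). No genotype or treatment is given for either group. The labels do not say whether replicates came from different mice or cultures. The p-values thus cover the spread among 3 samples an age, part or all of which could be technical. Values are log2 signals. A gene was tested where 3 or more of the 6 arrays put its probe set above log2 4. This held for 54 of the 72, and 18 lay under this filter.

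Marker genes of neural stem cells were present, with 12 of 13 passing this filter and Prom1 the exception. Their mean signal was 10.82 to 10.90 on the young arrays and 10.27 to 10.32 on the old ones. The mean of 9 neuron markers was 5.45 to 5.74 in young and 4.50 to 4.75 in old, and that of 6 astrocyte markers was 9.55 to 9.96 in young and 10.80 to 11.19 in old. Oligodendrocyte precursor markers (5) had means of 9.02 to 9.08 in young and 8.30 to 8.44 in old, and ependymal markers (5) of 3.74 to 4.15 in young and 4.28 to 4.61 in old. The genes of a list did not all move alike (limma, adjusted p under 0.05). Among stem cell markers 1 rose and 4 fell (log2 changes of -5.35 to 0.52), and among neuron markers 1 rose and 2 fell (-5.67 to 1.58). Among astrocyte markers 4 rose and 1 fell, among precursor markers 0 and 2, and among ependymal markers 2 and 1. The neuron markers Rbfox3, Syt1 and Stmn2 stayed at or under log2 4. None of 7 microglia, 5 endothelial or 7 mural and fibroblast markers passed the filter. Hybridisation controls were lower on the old arrays, 13.24 ± 0.28 in young and 12.28 ± 0.098 in old (SD, n = 3). The difference between 3' and 5' actin probe sets, a sign of RNA quality, was 0.57 to 0.65 in young and 0.67 to 0.73 in old. The part of these measures and of the markers in the results below was not tested. In bulk samples, fewer cells of a type and less RNA per cell cannot be told apart.

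In old cells most Rabs had small values of change, and a small set had large ones. Of the 54 tested genes 13 were higher and 5 lower in old cells, or 33.3%, against 40.6% of all 10050 tested genes (limma, adjusted p under 0.05, 22.0% higher and 18.5% lower). Over all probe sets the share was 36.6% (20.1% higher and 16.5% lower). Their median absolute change was 0.15 on the log2 scale, against 0.23 for all genes. Of the 54, 31 had a change under log2 0.2 in size, or 57.4%, against 45.5% of all tested genes. Among the 45 tested Rab proteins alone there were 30, or 66.7%. By contrast 10 of the 54 passed the threshold with a fitted change of at least 2-fold, or 18.5%, against 11.5% of all genes, although Rab33a is bounded only at 1.54-fold. All 10 were Rab proteins: Rab38, Rab26, Rab33a, Rab29, Rab32 and Rab7b rose, and Rab17, Rab39, Rab15 and Rab30 fell. Rab38 and Rab33a passed the filter only through the old arrays, so a rise was a condition of their being tested. Rab39 and Rab17 would not have passed it on their old arrays alone, so their high young signals were a condition as well. The same filter held for all genes. The old and young arrays did not overlap for 30 of the 54 genes, or 55.6%, against 60.0% of all genes. The number of higher genes was 8 without young replicate 3, without old replicate 2 and without old replicate 3. Of the 18 calls, 11 remained on leaving out any 1 array, namely those of Rab38, Rab26, Rab33a, Rab32, Rab21, Rab17, Rab39, Rab15, Rab30, Rab11fip2 and Rab5if.

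**Figure D1:**
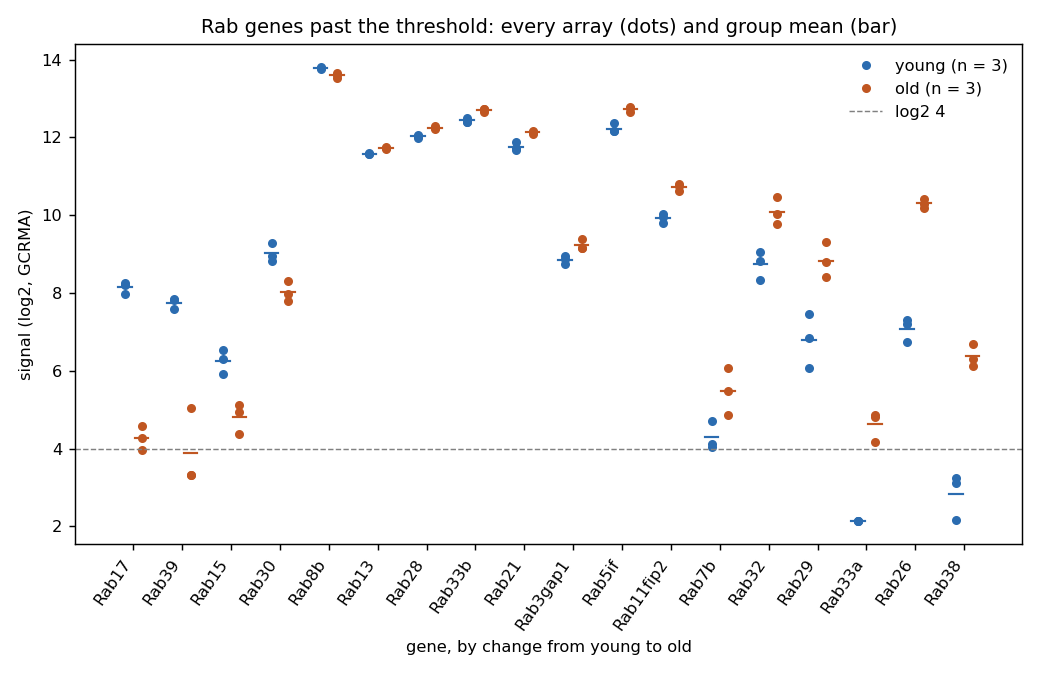
Signal (log2) of the 18 Rab genes past the threshold on each of the 3 young and 3 old arrays (dots), with group means (bars) and log2 4 as a dashed line, ordered by change. Rab17, Rab39 and Rab15 drop toward the dashed line in old cells, Rab38 and Rab33a rise across it, and the genes in the middle of the plot shift by less than log2 1.

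Promoter windows from RefSeq (assembly GRCm38.p6, 250 bases before to 50 after a gene's start) were matched for 58 of the 72 genes, and 47 of these were tested. Windows were not matched for Rab38, Rab26, Rab7b and Rab30. The windows of the 6 matched genes with a fitted change of at least 2-fold are printed with every CpG dinucleotide in capitals, because the number of CpGs differed widely among them. They are followed by that of Rab7, the late endosome Rab, which did not pass.

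Rab17 (chr1:90967618-90967917, minus strand, 5 CpGs, lower in old): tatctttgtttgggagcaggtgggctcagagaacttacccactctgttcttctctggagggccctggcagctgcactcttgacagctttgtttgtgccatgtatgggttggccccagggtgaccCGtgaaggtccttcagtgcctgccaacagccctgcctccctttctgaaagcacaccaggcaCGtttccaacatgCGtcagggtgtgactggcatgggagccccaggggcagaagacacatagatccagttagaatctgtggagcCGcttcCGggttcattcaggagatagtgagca
Rab33a (chrX:48519035-48519334, plus strand, 7 CpGs, higher in old): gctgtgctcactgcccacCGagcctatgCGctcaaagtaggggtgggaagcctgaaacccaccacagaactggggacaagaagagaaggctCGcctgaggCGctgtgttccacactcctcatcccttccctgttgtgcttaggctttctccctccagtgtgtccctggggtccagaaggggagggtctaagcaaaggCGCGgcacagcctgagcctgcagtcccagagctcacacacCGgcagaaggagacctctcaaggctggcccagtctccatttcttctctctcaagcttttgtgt
Rab32 (chr10:10558158-10558457, minus strand, 10 CpGs, higher in old): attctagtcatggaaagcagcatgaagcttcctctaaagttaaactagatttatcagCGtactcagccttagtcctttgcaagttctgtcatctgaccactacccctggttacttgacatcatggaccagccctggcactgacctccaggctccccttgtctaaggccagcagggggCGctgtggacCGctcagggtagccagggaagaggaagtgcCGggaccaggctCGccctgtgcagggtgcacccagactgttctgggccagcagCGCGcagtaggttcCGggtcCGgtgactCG
Rab29 (chr1:131867027-131867326, plus strand, 12 CpGs, higher in old): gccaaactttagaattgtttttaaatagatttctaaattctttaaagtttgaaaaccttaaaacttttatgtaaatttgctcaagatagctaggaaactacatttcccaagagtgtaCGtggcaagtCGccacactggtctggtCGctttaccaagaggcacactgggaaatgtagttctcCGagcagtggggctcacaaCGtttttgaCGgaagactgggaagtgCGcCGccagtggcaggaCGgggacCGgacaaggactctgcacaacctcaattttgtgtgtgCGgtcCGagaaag
Rab39 (chr9:53706183-53706482, minus strand, 27 CpGs, lower in old): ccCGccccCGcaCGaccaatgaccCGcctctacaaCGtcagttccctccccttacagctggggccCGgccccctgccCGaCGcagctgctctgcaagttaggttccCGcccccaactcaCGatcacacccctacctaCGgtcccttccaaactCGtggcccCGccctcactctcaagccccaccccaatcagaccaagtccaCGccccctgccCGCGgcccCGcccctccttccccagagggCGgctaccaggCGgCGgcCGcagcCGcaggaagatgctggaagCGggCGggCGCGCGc
Rab15 (chr12:76822475-76822774, minus strand, 38 CpGs at this start of 4 listed, lower in old): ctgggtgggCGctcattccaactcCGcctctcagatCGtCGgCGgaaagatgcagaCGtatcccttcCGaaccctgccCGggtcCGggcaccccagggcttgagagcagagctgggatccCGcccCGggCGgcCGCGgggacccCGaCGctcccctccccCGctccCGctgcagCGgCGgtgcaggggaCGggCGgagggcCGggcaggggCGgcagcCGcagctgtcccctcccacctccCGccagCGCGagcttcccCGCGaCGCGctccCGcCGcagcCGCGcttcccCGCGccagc
Rab7 (chr6:88044968-88045267, minus strand, 38 CpGs, not passed): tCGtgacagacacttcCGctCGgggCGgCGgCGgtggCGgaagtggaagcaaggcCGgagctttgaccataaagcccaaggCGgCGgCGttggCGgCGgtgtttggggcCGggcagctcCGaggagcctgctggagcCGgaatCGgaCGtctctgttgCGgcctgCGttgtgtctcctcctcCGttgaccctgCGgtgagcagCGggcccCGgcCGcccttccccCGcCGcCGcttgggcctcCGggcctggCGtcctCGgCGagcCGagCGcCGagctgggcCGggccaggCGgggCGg

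Where a gene had several starts, the window with the most CpGs was taken, and the median over all 8248 tested genes with a window was 23 CpGs. Of the 15 Rab genes below this median 4 passed with a fitted change of at least 2-fold (Rab17, Rab33a, Rab32 and Rab29), or 26.7%, against 14.1% of all tested genes below it. For Rab33a, whose young arrays are at the lowest value, a rise of only 1.54-fold or more is shown. Of the 32 Rab genes at or above the median 2 had done so (Rab39 and Rab15), or 6.25%, against 8.54% of all tested genes. The median absolute change went the other way. It was 0.12 for the 15 Rab genes, against 0.25 for all tested genes below the median. For the 32 Rab genes it was 0.16, against 0.21 for all tested genes at or above it. Few CpGs did not go with a change throughout: Rab3b, an exocytic Rab, had 8 CpGs and a log2 change of 0.03, and Rab9 had 9 CpGs and -0.10. The split is a description of 47 genes and was not tested. The E-box CACGTG, searched on both strands and a part of the site of lysosomal transcription factors, was in the windows of 6 of the 47 tested Rab genes, or 12.8%, near the 12.1% of all tested genes. Among the changed genes with a window, 1 of 10 higher (Rab21) and 0 of 4 lower genes had it. The GC box GGGCGG, also on both strands, was in the windows of 76.6% of the tested Rab genes and 71.6% of all tested genes. Of the other motifs searched on both strands, CATGTG was in 10.6% of the tested Rab genes and 9.42% of all tested genes, CCAAT in 53.2% and 43.9%, TATAAA in 10.6% and 8.33%, and TGACGTCA in 4.26% and 3.90%. The E-box, the GC box and the last of these each hold a CpG, and a match is not a binding site.

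**Figure D2:**
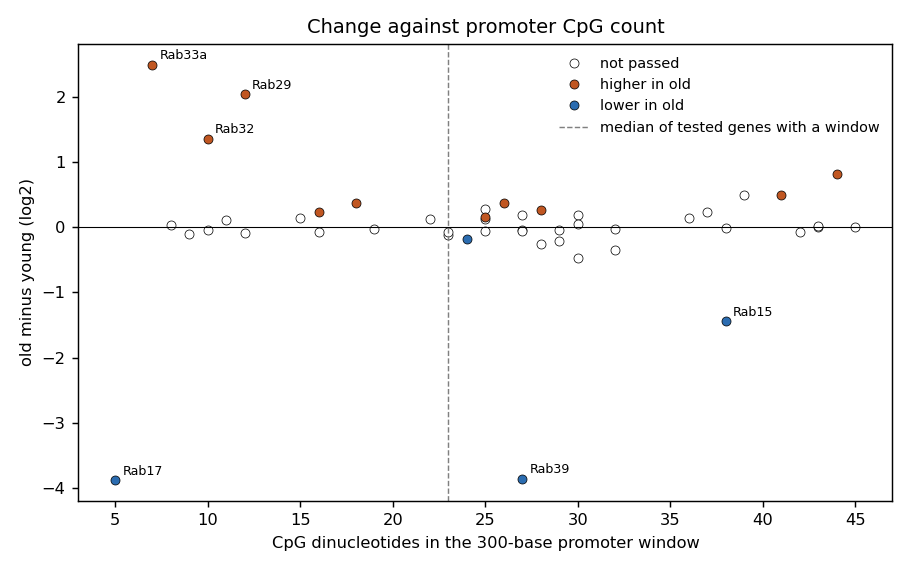
Change from young to old (log2, y axis) against the number of CpG dinucleotides in the promoter window (x axis) for the 47 tested Rab genes with a window, with the median of the tested genes (23 CpGs) as a dashed line. Rab17, Rab33a, Rab32 and Rab29 lie left of the line and away from 0, and Rab39 and Rab15 right of it.

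Endocytic Rabs act from early endosomes to lysosomes. Of 13 tested, 5 rose in old cells and 0 fell (38.5% changed, near the 40.6% of all genes, of which 22.0% were higher and 18.5% lower). The count that fell rests on the classes, since Rab39, which fell, was placed with the Golgi and is also known from late endosomes. At an unadjusted p under 0.05 there were 6 of 13, against 5204 of all 10050 tested genes. The median change was 0.15. Without old replicate 3 the count that rose was 3, with the calls of Rab29 and Rab7b lost, and without the filter on dim probe sets it was 2. With the trend and robust options of eBayes, 1 endocytic Rab, Rab5c, was lower.

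The largest rises came from Rab38, Rab32 and Rab29, close relatives that form 1 subfamily and serve lysosomes and lysosome-related organelles. Rab38, known for the delivery of pigment enzymes to melanosomes, read 3.12, 2.17 and 3.24 on the young arrays and 6.13, 6.31 and 6.68 on the old ones. Every young array lay under log2 4 and every old array above log2 6. The rise was at least 5.18-fold against log2 4 (adjusted p = 0.00114 by limma). Its fitted change was 3.53, a value that rests on signals near the floor of the array. Rab32, which shares this role and also sits on mitochondria, read 9.06, 8.32 and 8.83 in young cells and 9.77, 10.04 and 10.46 in old cells. The ages did not overlap, and the change was 1.35 ± 0.25 (log2, SE), or 2.56-fold (adjusted p = 0.0117). Rab29, which recruits the kinase LRRK2 to membranes, read 7.47, 6.07 and 6.85 in young cells and 8.80, 8.40 and 9.30 in old cells. All old arrays were above all young ones despite a wide spread, with a change of 2.04 ± 0.41, or 4.11-fold (adjusted p = 0.0147, and 0.0505 without old replicate 3).

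Genes that act on this subfamily were measured as well. Lrrk2 itself had a change of 0.61 (adjusted p = 0.169). Hps4, part of the exchange factor of Rab32 and Rab38, had one of -0.08 (adjusted p = 0.460), and its partner Hps1 lay under the filter. As Rab38 and Rab32 are known from pigment cells, 7 melanocyte markers were looked up after the values were seen. Tyr, Tyrp1, Dct, Pmel, Mlana and Slc45a2 stayed at or under log2 4 on every array, and Mitf, a transcription factor also found outside pigment cells, rose by 0.53 (adjusted p = 0.00319).

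Rab7b, which moves cargo from late endosomes to the Golgi, read 4.13, 4.05 and 4.72 in young cells and 4.87, 6.07 and 5.48 in old cells. The ages did not overlap but came close, and the change of 1.17 ± 0.35 passed narrowly (adjusted p = 0.0479). Its size is uncertain, as the young arrays were close to log2 4. Of the 6 arrays, old replicate 1 was the only one that could be left out with the call kept (adjusted p of 0.0211 to 0.177 over the alternatives). Rab21, an early endosome Rab that carries integrins, read 11.88, 11.68 and 11.72 in young cells and 12.09, 12.13 and 12.16 in old cells. This was a small and tight rise of 0.36 ± 0.068, or 1.29-fold (adjusted p = 0.0114), and the other kept probe set of Rab21 rose as well.

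The other endocytic Rabs, which include the best known of the class, did not pass. Rab5a, the master switch of early endosomes, had a change of 0.05 (95% interval -0.11 to 0.20). Its relatives Rab5c and Rab5b had -0.12 and 0.15. Rab7, which drives late endosomes to lysosomes, had means of 14.14 (young, SD 0.00067, n = 3) and 14.12 (old, SD 0.023, n = 3), and the difference was -0.01 (95% interval -0.12 to 0.09). At its other kept probe set the ages did not overlap, and the change was 0.21 (95% interval 0.05 to 0.38, adjusted p = 0.0548). Rab9, which returns cargo to the Golgi, had -0.10, Rab31 -0.04, Rab24 -0.03 and Rab22a 0.19 (adjusted p = 0.0725). Rab20 and Rab9b lay under the filter on every array.

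Among the secretory Rabs, calls went both ways. Of 19 tested, 4 rose and 3 fell (36.8% changed, near the 40.6% of all genes), with a median change of 0.00. An unadjusted p under 0.05 was found for 8 of 19, against 5204 of all 10050 tested genes. The number that rose was 2 without young replicate 3, old replicate 2 or old replicate 3, in each case with Rab33b and Rab13 lost. Another 8 lay under the filter.

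Among those of the endoplasmic reticulum and Golgi, 2 of 12 rose and 2 fell. Rab39, placed with the Golgi here and also known from late endosomes, read 7.81, 7.86 and 7.59 in young cells and 5.05, 3.33 and 3.32 in old cells. Old replicate 1 stood above the other old arrays, and the ages were far apart. Against that highest old array the fall was at least 6.50-fold (adjusted p = 0.00349), and the fitted change was -3.85. Rab30, a Golgi Rab, read 8.96, 9.28 and 8.83 in young cells and 7.97, 8.30 and 7.79 in old cells, with no overlap. The change was -1.0 ± 0.18, or 2.00-fold lower (adjusted p = 0.00949).

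Rab33a, found on Golgi-derived vesicles of growing axons, lay at the lowest value of the array, 2.14, on all young arrays and read 4.87, 4.18 and 4.82 on the old ones. It rose at least 1.54-fold against log2 4 (adjusted p = 0.000683). The young arrays have no spread there, so the spread behind this p-value is understated. Its relative Rab33b, a Golgi Rab that binds the autophagy protein Atg16l1, read 12.51, 12.41 and 12.41 in young cells and 12.65, 12.74 and 12.73 in old cells. The shift was 0.26 ± 0.055 (adjusted p = 0.0164). Rab36, a Golgi Rab under the filter, read 2.28, 2.16 and 2.24 in young cells and 3.39, 4.43 and 4.94 in old cells. Only 2 old arrays were above log2 4, and without the filter limma gave it an adjusted p of 0.0657.

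The other 8 tested Golgi and endoplasmic reticulum Rabs had changes of at most log2 0.18 in size and did not pass. Rab19 and Rab43 lay under the filter. Rab1a, which takes vesicles from the endoplasmic reticulum to the Golgi, had a change of -0.06 (95% interval -0.17 to 0.05), and Rab1b had 0.18. Rab2a, which works in the same step, had means of 14.11 (young, SD 0.017, n = 3) and 14.23 (old, SD 0.015, n = 3). The ages did not overlap, and the difference of 0.12 did not pass (adjusted p = 0.0719). Rab6a had -0.05, Rab6b -0.08 and the lipid droplet Rab, Rab18, -0.01. Rab2b had a change of 0.13 (adjusted p = 0.220) at its brightest probe set, while 3 of its other 4 kept probe sets rose.

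Of the exocytic Rabs, which bring vesicles to the plasma membrane, 2 of 7 rose and 1 fell. Rab26, which acts on secretory granules and steers synaptic vesicles to autophagosomes, read 7.20, 6.73 and 7.31 in young cells and 10.19, 10.42 and 10.29 in old cells. All 6 arrays were well above log2 4 and the ages were far apart. Its change of 3.22 ± 0.17, or 9.32-fold (adjusted p = 0.000191), was the largest rise among the tested Rab genes that did not start from the floor. The antisense transcript Rab26os had a change of only 0.10 (adjusted p = 0.305).

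Rab13, which serves cell junctions, and Rab8b, which brings vesicles from the Golgi to the surface, passed with small shifts. Rab13 read 11.58, 11.59 and 11.58 in young cells and 11.69, 11.74 and 11.76 in old cells, a rise of 0.15 ± 0.044 (adjusted p = 0.0468). Rab8b read 13.77, 13.82 and 13.75 in young cells and 13.61, 13.65 and 13.54 in old cells, a change of -0.18 ± 0.052 (adjusted p = 0.0442). Neither call survived the loss of an array, whichever of the 6 it was. Rab3a and Rab3b, Rabs of regulated release, had changes of 0.12 and 0.03, Rab8a had -0.07, and Rab10, which acts in the delivery of glucose transporters, had 0.00 (95% interval -0.13 to 0.14). Rab27a and Rab27b, the Rabs of granule docking, lay under the filter, as did Rab3c, Rab3d and Rab37. Rab27b reached 4.79 on young replicate 1 and at most 2.65 on the other arrays.

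Recycling Rabs return receptors from endosomes to the surface. Of 9 tested, 2 fell and 0 rose (22.2% changed, all lower, against 40.6% of all genes changed and 18.5% lower). The median change was -0.04. An unadjusted p under 0.05 was found for 2 of 9, against 5204 of all 10050 tested genes. Both falls remained on leaving out any 1 array. Rab17, known from transcytosis through recycling endosomes in epithelia and from dendrites in neurons, read 7.98, 8.22 and 8.26 in young cells and 4.58, 4.29 and 3.96 in old cells. All young arrays lay far above all old arrays, which were close to log2 4. Its change of -3.87 ± 0.18, or 14.7-fold lower (adjusted p = 0.000126), had the smallest adjusted p of all Rab genes. As the old signals are close to the floor, the size of the fall is uncertain.

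Rab15, a Rab of neural tissue that acts in recycling from early endosomes, read 6.29, 5.92 and 6.54 in young cells and 5.11, 4.37 and 4.95 in old cells. The ages did not overlap, with a change of -1.44 ± 0.25, or 2.71-fold lower (adjusted p = 0.00892). The old arrays were close to log2 4, so the size of this fall is uncertain too. The general recycling Rabs did not pass. Rab11a, the main Rab of the recycling endosome, had -0.07 (95% interval -0.22 to 0.07) and its relative Rab11b -0.09 (95% interval -0.21 to 0.03). Rab4a, of the fast recycling route, had 0.13, Rab4b 0.29, Rab14 -0.04, Rab35 0.02 and Rab12 0.24, and none of them passed. Rab25, an epithelial relative of Rab11, was at 2.14 on all 6 arrays.

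**Figure D3:**
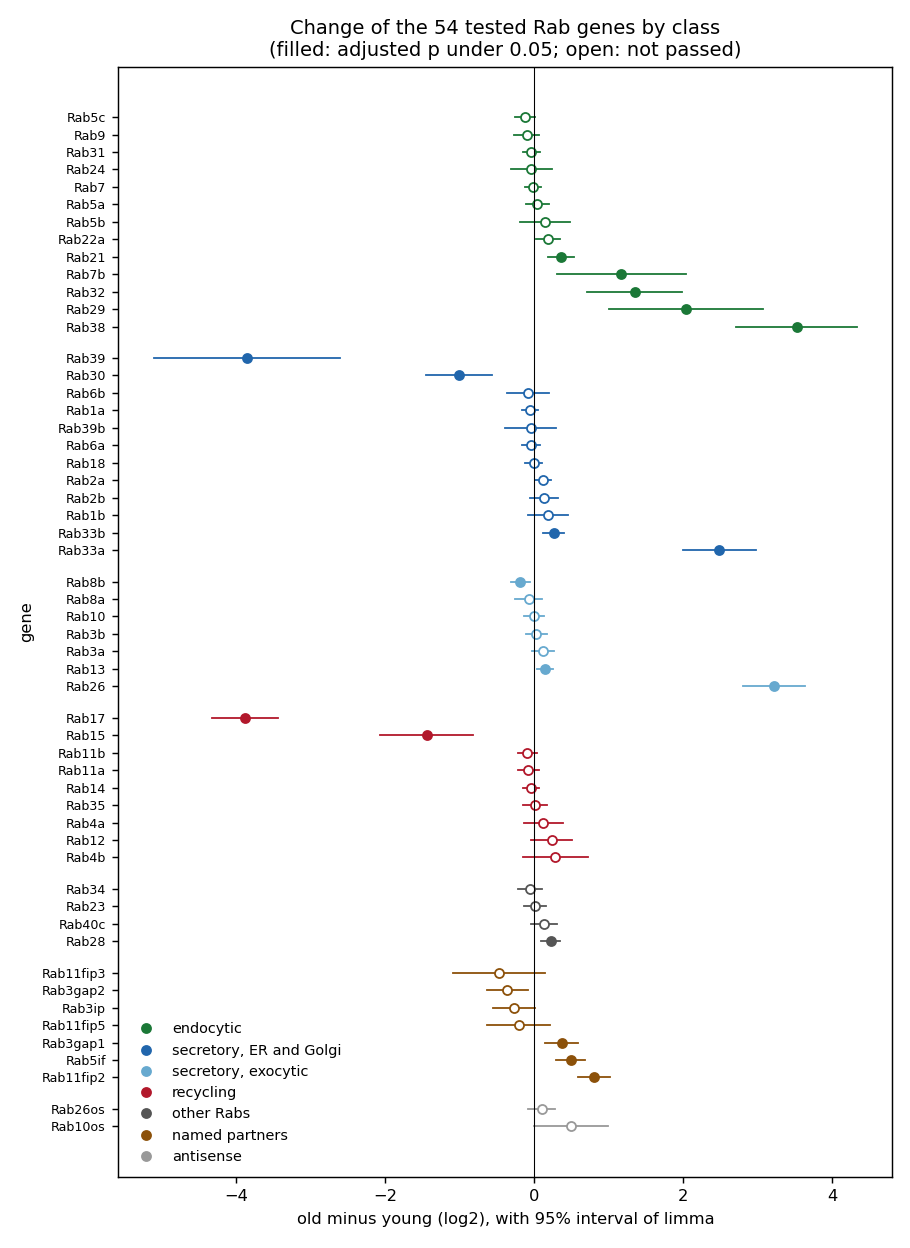
Change from young to old (log2, x axis) with the 95% interval of limma for the 54 tested Rab genes, grouped by class, with filled dots for an adjusted p under 0.05. The 5 filled endocytic dots lie right of 0 and the 2 filled recycling dots left of it, while most open dots lie within log2 0.2 of 0.

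Outside these routes, Rab28, found in cilia, read 12.06, 12.04 and 11.98 in young cells and 12.30, 12.24 and 12.22 in old cells. It rose by 0.23 ± 0.050 (adjusted p = 0.020). It no longer passed when young replicate 3, old replicate 1 or old replicate 2 was left out. The ciliary regulators of Hedgehog signalling Rab23 and Rab34 had changes of 0.01 and -0.05. Rab40c had 0.13, while Rab40b, Rab42 and Rab44 lay under the filter.

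Of the 7 tested partners named after a Rab, 3 rose and 0 fell (42.9% changed, against 40.6% of all genes). Rab11fip2, which links Rab11 to the motor myosin Vb, read 10.02, 9.95 and 9.79 in young cells and 10.80, 10.76 and 10.62 in old cells. The change was 0.81 ± 0.085, or 1.75-fold (adjusted p = 0.00177), and its other kept probe set rose as well. Rab5if, a membrane protein named as a Rab5-interacting factor, read 12.36, 12.16 and 12.16 in young cells and 12.65, 12.77 and 12.75 in old cells, a rise of 0.50 ± 0.078 (adjusted p = 0.00640).

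Rab3gap1 and Rab3gap2 are the subunits of a single complex that turns off Rab3 and turns on Rab18, and their values had opposite signs. Rab3gap1, the catalytic subunit, read 8.95, 8.76 and 8.86 in young cells and 9.15, 9.17 and 9.38 in old cells, a rise of 0.37 ± 0.088 (adjusted p = 0.0244). It no longer passed when replicate 2 or replicate 3 of either age was left out. Rab3gap2 had a change of -0.36 (adjusted p = 0.0552), without overlap of the ages, and its other kept probe set fell (-0.37, adjusted p = 0.0218). The difference between the subunits was not tested. Rab3ip, the exchange factor of Rab8, had -0.27 (adjusted p = 0.123), Rab11fip3 -0.47 (adjusted p = 0.190) and Rab11fip5 -0.21 (adjusted p = 0.381). Rab11fip1, Rab11fip4 and Rab3il1 lay under the filter, as did the antisense transcript Rab11fip4os1, while Rab10os had 0.50 (adjusted p = 0.103).

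In 15 pairs of genes both were tested. Neither passed in 9, a single gene passed in 4, and both passed in the same direction in 2. The pairs are close relatives, save Rab3gap1 and Rab3gap2, which are subunits of a single complex and among the 4. Rab5a stands in more than 1 pair. Rab7 had -0.01 (0.21 at its other kept probe set) and Rab7b 1.17. Rab39b had -0.05 (-0.36 at its other kept probe set), while Rab39 fell at least 6.50-fold. Rab33b rose by 0.26 and Rab33a at least 1.54-fold. The differences within these pairs were not tested. At their brightest probe sets Rab11a and Rab11b (-0.07 and -0.09), Rab2a and Rab2b (0.12 and 0.13) and Rab6a and Rab6b (-0.05 and -0.08) had values near each other. The other kept probe sets of Rab2b had 0.27 to 0.78, those of Rab6b 0.02 to 0.63 and those of Rab11b -0.32 and -0.14. Those of Rab2a had -0.12 to 0.11.

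The size of change went with the signal of the probe set. Of 19 Rab genes with a mean signal above log2 12, 4 passed (21.1%, against 30.4% of all genes in that range), and the largest change there was 0.50, that of Rab5if. Between log2 10 and 12, 3 of 13 passed (23.1%, against 44.6%), and between log2 8 and 10, 4 of 11 did (36.4%, against 43.3%). At or under log2 8, 7 of 11 passed (63.6%, against 46.1%), with a median absolute change of 1.44 against 0.63 for all genes there. The 11 include Rab38 and Rab33a, which passed the filter only through the old arrays. They also include Rab39 and Rab17, which needed their young arrays to pass it. A probe set's signal depends on its sequence as well as on the transcript, so this is not an order of transcript levels. The same widening toward dim probe sets was present in all genes.

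**Figure D4:**
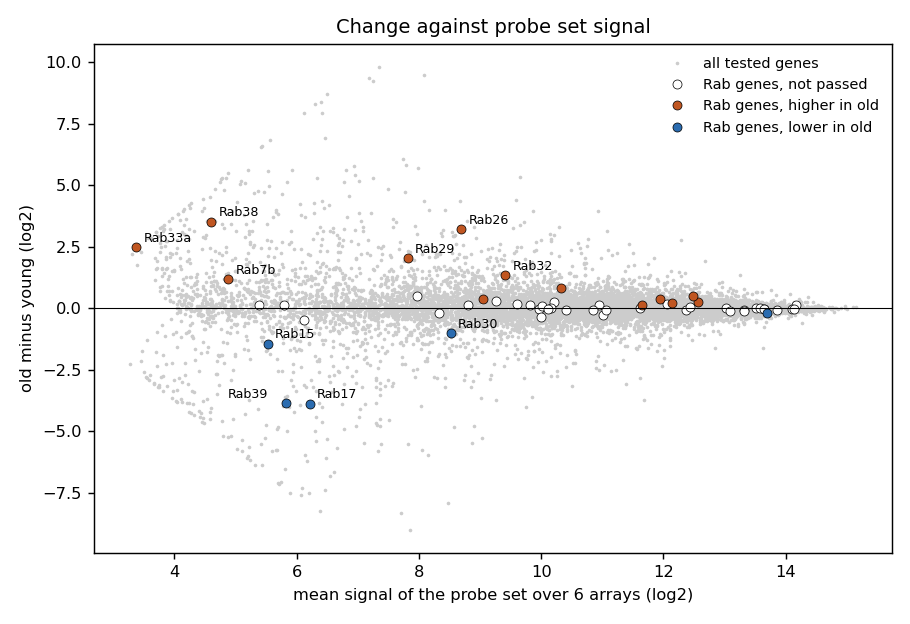
Change from young to old (log2, y axis) against the mean signal of the probe set (log2, x axis) for all 10050 tested genes (grey) and the 54 Rab genes (circles), with names where the fitted change is at least 2-fold. Rab genes above log2 12 lie close to 0, and the 10 named genes have mean signals under log2 10.

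Genes that run the Rab cycle were read from lists of their own. Of 7 genes that attach lipids to Rabs, carry them between membranes or otherwise bind them, 3 rose and 0 fell. Chml, an escort protein of lipid attachment, rose by 0.80 (adjusted p = 0.00167), the prenylated Rab acceptor Rabac1 by 0.36 and Rabif by 0.37. The general Rab carrier Gdi2 had a change of -0.01. Of 23 tested exchange factors 3 rose and 5 fell. Dennd2c read 4.19, 3.64 and 3.27 in young cells and 6.58, 7.05 and 6.92 in old cells, a rise of at least 6.32-fold against its highest young array (adjusted p = 0.000807). Its young arrays alone would not have passed the filter. Sbf2 had -0.46, Dennd5b -0.79 and Gapvd1, which acts on Rab5, -0.25. Of 29 tested GTPase-activating proteins 7 rose and 7 fell, led by falls of Evi5l (-1.43, adjusted p = 0.000212), Tbc1d9 (-1.83) and Sgsm2 (-1.09). Tbc1d16 fell from signals just above log2 4 (-1.28, at least 1.15-fold against log2 4). It passed the filter only through the young arrays.

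Of 35 tested effectors 6 rose and 11 fell. The effectors of vesicle release gave the extremes. Sytl4, which docks secretory granules through Rab27 and Rab3, read 2.14 on all young arrays and 8.92, 8.29 and 8.91 on the old ones. It rose at least 26.1-fold against log2 4 (adjusted p = 2.57e-05), while Rab27a and Rab27b themselves were under the filter at both ages. As the young arrays of Sytl4 have no spread, the spread behind its p-value is understated. Rims2, a Rab3 effector of the presynaptic active zone, read 7.24, 7.87 and 7.45 in young cells and 2.28, 2.41 and 2.35 in old cells, a fall of at least 11.5-fold. Sytl4 passed the filter only through the old arrays and Rims2 only through the young ones. Of 5 tested neuron markers 2 were lower and 1 higher in old cells, and their part in the fall of Rims2 was not tested. Rabep1, the Rab5 effector rabaptin, had -0.45 and the recycling adaptor Ehbp1 -0.42. Of 6 Rab-like GTPases 2 rose and 2 fell, with Rasef at 0.70 and the ciliary protein Ift27 at -0.45. The shares that changed in these lists were 42.9%, 34.8%, 48.3%, 48.6% and 66.7% in the order given, to be read against 40.6% of all genes.

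Of 28 Rab genes with more than 1 kept probe set, 11 had fitted changes of both signs and 17 of a single sign. Only Rab11fip2, Rab21 and Rab2b had more than 1 called probe set, each in the same direction. The brightest probe set passed in 3 of the 28 (Rab11fip2, Rab21 and Rab28), each with its other kept probe set of the same sign. In 4 genes, Rab2b, Rab39b, Rab3gap2 and Rab10os, the brightest did not pass and another did. At the other kept probe set of Rab39b the change was -0.36 (adjusted p = 0.0221). Rab17, Rab26, Rab29, Rab32, Rab33a, Rab38, Rab39, Rab15, Rab30 and Rab7b rest on a single kept probe set each. At the other probe set of Rab38, under the filter, the old arrays read 3.35, 4.42 and 4.39 and the young arrays at most 2.17. The second probe set of Rab17 stayed at or below 2.16 on all arrays.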

How the data were processed

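The authors deposited log2 values per probe set for 6 arrays, computed with GCRMA per the submitters' processing notes. The GCRMA version is not given. GCRMA sets dim probe sets near a single lowest value (2.14), so their spread is understated. That the scale is log2 was inferred from the range of the values. Precision is limited by there being 3 arrays an age.

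Control probe sets (64) were set aside. Of the rest, 34945 had 1 symbol in the platform annotation, and a gene was taken at its brightest probe set. Probe sets above log2 4 on 3 or more arrays (19858, for 10050 named genes) were compared between ages by the two-sided moderated test of limma (version 3.58.1, under R 4.3.3, functions lmFit and eBayes). P-values were adjusted by Benjamini-Hochberg across these probe sets, with 0.05 as threshold. The script was tested on simulated data. Where all arrays of an age lay under log2 4, the fold is a bound against log2 4, and where only their mean did, against the highest of them.

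The Rab genes, classes and lists were chosen with earlier results of these data known. The place of Rab5if, the antisense class and the melanocyte list were set after the values were seen. By rule any Rab gene could be named, and up to 4 genes of each further list by p. Gdi2, Lrrk2, Hps1, Hps4 and Mitf were named beside it, after their values were seen. Alternatives covered the filter, scaling, replicate block, array weights, variance model, threshold, choice of probe set and each array left out.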

Additional observations from a re-analysis of the deposited data

How the results depend on the processing

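No named Rab gene that passed changed its direction under the 16 alternatives, and 9 of the 18 calls remained wherever the gene was tested: Rab38, Rab26, Rab33a, Rab17, Rab39, Rab15, Rab30, Rab11fip2 and Rab5if. Over all alternatives and tested Rab genes (862 comparisons), 55 lost a call and 19 gained it. On leaving out each array in turn, higher Rab genes numbered 8 to 11, lower 4 to 6, higher endocytic Rabs 3 to 5 and higher secretory Rabs 2 to 3, against 13, 5, 5 and 4. Lower probe sets numbered 2177 to 3301 over all genes. Without the filter 2 endocytic Rabs were higher, with the calls of Rab29, Rab32 and Rab7b lost, while Rab2a gained a call. The cause was not tested. With the replicate number as a block 8 Rab genes and 2 secretory Rabs were higher. The deviations of samples with the same number had correlations of -0.16, -0.11 and 0.16, against -0.22 to 0.25 for samples with different numbers. With 3 arrays an age this cannot show whether samples with the same number share more than the number. With trend and robust options 1 endocytic Rab, Rab5c, was lower, and the cause was not tested. At an adjusted p under 0.01, 2148 probe sets were higher and 1629 lower, and 5 Rab genes, 1 endocytic and 2 secretory Rabs were higher. Under the filter at log2 5, Rab33a and Rab7b were not tested. Signals near the floor limit the size of the changes of Rab38, Rab33a, Rab39, Rab17, Rab15 and Rab7b.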
